A study of Drosophila melanogaster with 25 samples.

Results

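The set described here holds 35 genes of DNA replication and the cell cycle, found by gene symbol among the 17208 genes of each count table. The set was proposed with earlier results of these data known, so no test was run on it as a whole. It was divided by textbook role into 18 S-phase genes, 6 genes of G1 control and 11 mitotic genes. Of the symbols, 34 were found as spelled and Mad2 under the spelling mad2. RNA of Drosophila melanogaster had been sequenced from 25 libraries to follow the transcriptome when the activity of the atypical cadherin gene fat (ft) is raised or lost. The raised state, called FtICD here, came from a stock carrying ubi-Gal4, a broadly expressed driver, and UAS-FtICD-3xFLAG, which encodes the intracellular part of the Fat protein with a FLAG tag. The lost state was the heteroallelic ft null ft fd5-5/ft X13. The wild type was w1118 throughout, so the FtICD comparisons have no control that carries ubi-Gal4 without the UAS transgene. The first table held 16 to 20 h embryos (4 FtICD and 4 w1118 libraries), wing discs of L3 larvae (3 FtICD and 3 w1118), and eye-brain complexes of the same stage (3 FtICD and 2 w1118). The second table held L3 eye-brain complexes of the ft null (3 libraries) with a w1118 of their own (3 libraries). Animals were kept at 25 C and cDNA was made from whole tissue.

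Before S phase, the origin recognition complex (Orc1, Orc2, Orc4, Orc5 and Orc6 here) together with Cdc6 and the Cdt1 protein, the product of dup, loads the MCM helicase onto origins, and Geminin binds Cdt1 to prevent loading again in the same cycle. Cyclin D with Cdk4 and the cyclin partner Cdk2 act against the retinoblastoma protein Rbf, which holds back the factor E2F and its partner Dp, and the E2F complex switches on many replication genes. Entry into mitosis needs the phosphatase String (stg, Cdc25), which activates Cdk1 bound to cyclin A, B or B3, followed by the kinases Polo, Aurora A and Aurora B, while BubR1 and Mad2 of the spindle checkpoint restrain Fizzy (fzy, Cdc20) until chromosomes are attached. In late embryos most cells have left the mitotic cycle, whereas larval discs and brains hold dividing epithelium and neuroblasts.

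Levels are given as CPM, each count per 1000000 counts of its library, scaled by edgeR's TMM factors over the libraries of the comparison named, so that the same library can have somewhat different CPM in different comparisons. All 35 genes passed the filter on low counts in every comparison, the smallest count of any of them being 14, for Orc2 in an embryo library. A gene is called higher or lower here where edgeR's two-sided quasi-likelihood test, adjusted by Benjamini-Hochberg over all genes tested, gave p under 0.05. Library totals ran from 15016563 to 54256664 counts, of which the 35 genes took 0.04482 to 0.07104% in embryos, 0.5075 to 0.6225% in wing discs and 0.3698 to 0.4874% in eye-brain complexes. As a check of the genotype labels, ft was higher with FtICD by log2 fold changes of 5.55 ± 0.16 in embryos, 4.74 ± 0.12 in wing discs and 5.02 ± 0.15 in eye-brain complexes (SE, adjusted p = 1.1e-08, 1.3e-05 and 8.2e-04). The ft null libraries also held more ft RNA, by 0.54 ± 0.07 (SE, adjusted p = 9.5e-04), and counts per gene do not show whether that RNA encodes a working protein. Within the first table, 6 wing disc marker genes summed to 601 to 922 CPM in wing discs and 130 to 157 in eye-brain complexes, and 6 eye marker genes to 130 to 303 CPM in eye-brain complexes and 5.76 to 23.6 in wing discs. The libraries are labelled as replicates without saying whether they came from separate collections, so the p-values measure the spread between these libraries, which may be technical. The kit used does not mark strand, and exons of 12 of the 35 genes overlap those of a gene on the opposite strand by 50 bases or more. The values of these 12 genes are uncertain to that extent. They are Mcm3, Mcm7 (by 2003 bases of asRNA:CR45871), Mcm10, Orc1, Orc5, Orc6, dup, Cdk4, Cdk2 (by 1010 bases of CG17267), aurA, fzy and Mad2. Among the genes on which the results below turn, Ensembl release 115 (BDGP6.54, the dm6 assembly) places geminin on 2R from 6655463 to 6656594, PCNA on 2R from 20261754 to 20262883, CycB on 2R from 22803521 to 22806948, and aurB on 2L from 10856797 to 10858094. It places Mcm3 on X from 5323855 to 5326738, Rbf on X from 797090 to 801479 and stg on 3R from 29251826 to 29255800. Counts were summed over whole genes, without separating exons, introns or transcripts.

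The w1118 libraries of the first table were first compared across tissues. In wing discs all 35 genes were higher than in embryos (35 of 35 called higher, against 36.7% of all genes called higher and 50.8% called lower). The median log2 difference was 2.99 over the S-phase genes, 2.07 over the G1 genes and 3.60 over the mitotic genes, against -0.48 over all genes tested. In eye-brain complexes 33 of the 35 were higher than in embryos (39.3% of all genes higher, 42.9% lower), with medians of 2.49, 1.87 and 3.27 against -0.07 over all genes. RLE size factors in place of TMM moved the median over all genes by -0.13 in the first of these comparisons and -0.21 in the other. In such bulk samples fewer cycling cells and less RNA per cycling cell cannot be told apart. Embryos were sequenced on another instrument than the larval tissues of this table, and tissue and instrument cannot be told apart in these comparisons.

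Mcm5, a subunit of the replicative helicase, stood at 7.48, 6.16, 6.82 and 6.77 CPM in the 4 w1118 embryo libraries, at 135, 123 and 127 in wing discs, and at 100 and 97.8 in eye-brain complexes. The tissues did not overlap, and Mcm5 was 18.8-fold higher in wing discs than in embryos (log2 difference 4.24 ± 0.08 SE, edgeR adjusted p = 5.0e-11) and 14.5-fold higher in eye-brain complexes (3.86 ± 0.09 SE, adjusted p = 4.9e-10). The helicase subunit gene dpa (Mcm4) went from 19.5 to 22.6 CPM in embryos to 294, 230 and 287 in wing discs and 185 and 193 in eye-brain complexes. PCNA, the sliding clamp of the replication fork, rose in the same way. It stood at 61.5, 53.8, 62.8 and 59.3 CPM in embryos, 473, 420 and 493 in wing discs and 300 and 275 in eye-brain complexes. RnrL, the large subunit of ribonucleotide reductase, which makes deoxyribonucleotides, rose from 12.4 to 14 CPM in embryos to 109 to 140 in wing discs (log2 difference 3.29, adjusted p = 6.2e-10). Cdc6, which helps to load the helicase, changed least of the S-phase genes. It was at 21.6, 16.2, 20.7 and 14.5 CPM in embryos and at 25.7, 22.5 and 23.9 in wing discs, a log2 difference of 0.40 ± 0.14 (SE, adjusted p = 0.023). That call was lost without embryo replicate 2 or 4 or wing disc replicate 1 (adjusted p = 0.062 to 0.069), with RLE size factors (0.27, adjusted p = 0.096) and with DESeq2 (0.27, adjusted p = 0.097). In eye-brain complexes Cdc6 did not differ beyond its error from embryos (log2 difference 0.00 ± 0.17 SE, adjusted p = 0.99).

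Of the G1 genes, Dp rose most clearly, from 42.3, 42.7, 47.9 and 44.1 CPM in embryos to 241, 241 and 247 in wing discs and 207 and 204 in eye-brain complexes (log2 differences of 2.46 and 2.22, edgeR adjusted p = 3.1e-10 and 2.7e-09). Cdk2 was 8.57-fold and CycD 4.09-fold higher in wing discs than in embryos. Cdk4, the partner of cyclin D, was 2.55-fold higher in wing discs (98.4, 102 and 105 CPM against 37.9 to 41.8). In eye-brain complexes Cdk4 was at 43 and 39.7 CPM, within 0.05 of embryos on the log2 scale (adjusted p = 0.57). Rbf was higher in eye-brain complexes than in embryos by only 0.44 (adjusted p = 8.1e-03), a call lost without eye-brain replicate 1 (0.22, adjusted p = 0.22) with RLE size factors in place of TMM (0.23, adjusted p = 0.12) and with DESeq2 (0.23, adjusted p = 0.14).

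The 11 mitotic genes were higher in both larval tissues than in embryos. The gene of Aurora A kinase, which acts at centrosomes, was at 1.9, 2.3, 2.37 and 2.18 CPM in embryos, 57.6, 58.9 and 66.6 in wing discs and 42.7 and 43.6 in eye-brain complexes. It was 27.9-fold higher in wing discs (log2 difference 4.80 ± 0.11 SE, adjusted p = 8.0e-11) and 19.7-fold higher in eye-brain complexes. Cdk1, the mitotic kinase, was 25.1-fold, BubR1 22.9-fold and aurB 19.2-fold higher in wing discs. The smallest rises in this class were those of stg (3.33-fold), CycB3 (3.38-fold) and CycB (3.47-fold). CycB was at 62.1, 39.2, 74.1 and 32 CPM in w1118 embryos and at 183, 170 and 186 in wing discs. Its embryo libraries fell in a high pair, replicates 1 and 3, and a low pair, replicates 2 and 4. Cdk1 (8.78 and 9 against 4.43 and 4.17 CPM), polo (31.1 and 38.1 against 17 and 20.5) and CycA (23.3 and 22.7 against 14.3 and 16.3) were divided in the same way, a pattern picked out after the values were seen. In stg (58 and 63.6 against 58.1 and 56.4) the pairs overlapped.

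Per kilobase of exon, which allows genes to be compared, geminin (61.5 CPM per kb) and PCNA (55.4) were the most abundant of the 35 in w1118 embryos, ahead of RnrS (31.5) and stg (19.3). In wing discs the order was PCNA (432 CPM per kb), geminin (198), Cdk1 (152), polo (151) and aurB (143). In eye-brain complexes PCNA (269) and geminin (154) were followed by stg (110), aurB (101) and Cdk1 (98). BubR1 and Orc2 were the lowest in embryos, at 0.747 and 0.815 CPM per kb. Cdc6 was the lowest in wing discs and eye-brain complexes, at 9.69 and 7.33 CPM per kb. Neighbours such as Cdk1 and polo in wing discs overlapped between libraries.

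**Figure D1:**
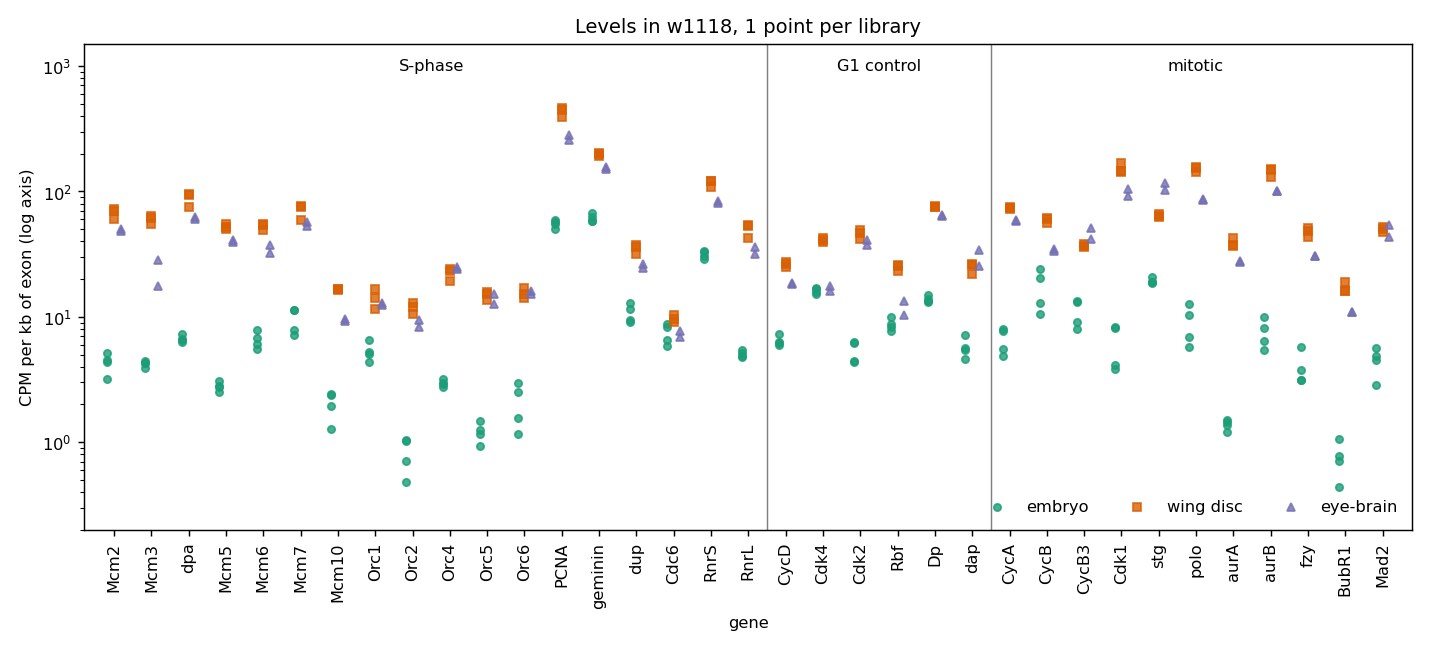
Level of each of the 35 genes in w1118, in CPM per kilobase of exon on a log axis, with 1 point per library (4 embryo, 3 wing disc and 2 eye-brain libraries), grouped into S-phase, G1 control and mitotic genes. The embryo points lie below both larval tissues for most genes, with Cdc6 and Cdk4 in eye-brain complexes level with the embryo. The eye-brain points of stg, and by less those of CycB3 and Orc4, lie above their wing disc points.

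Between the larval tissues of the first table, 21 of the 35 genes were lower in w1118 eye-brain complexes than in wing discs and 1 was higher (20.9% of all genes lower, 29.2% higher). Of the S-phase genes 11 of 18 were lower (median log2 difference -0.43), of the G1 genes 4 of 6 (-0.38) and of the mitotic genes 6 of 11 (-0.50), against a median of 0.05 over all genes. Mcm3 was lowest relative to wing discs, at 78.5 and 48.4 CPM against 168, 150 and 173 (-1.37 ± 0.18 SE, edgeR adjusted p = 9.2e-05), and its eye-brain libraries lay far apart. PCNA differed by -0.69 ± 0.10 (SE, adjusted p = 3.0e-04), RnrS by -0.51 (adjusted p = 1.1e-03) and RnrL by -0.55 (adjusted p = 3.4e-03). Orc4, Orc5 and Orc6, of the origin recognition complex, differed by 0.15, -0.10 and 0.02 and were not called. Cdk4 had the smallest p of all 35 genes (-1.30 ± 0.08 SE, adjusted p = 4.4e-07), with Rbf at -1.07 (adjusted p = 8.9e-05), CycD at -0.52 and Dp at -0.24, which was -0.40 without eye-brain replicate 1. Among mitotic genes aurA differed by -0.50 (adjusted p = 2.8e-03), fzy by -0.64, polo by -0.81, BubR1 by -0.65, aurB by -0.50 and CycB by -0.78, each of these 5 with an adjusted p between 0.025 and 0.049. The exception among called genes was stg, the rate-limiting activator of mitotic entry. It was at 361 and 315 CPM in eye-brain complexes against 202, 191 and 195 in wing discs. The level of stg was 1.72-fold higher there (0.78 ± 0.09 SE, adjusted p = 3.7e-05), and the tissues did not overlap. CycB3 also lay above wing discs, at 147 and 120 CPM against 105, 104 and 109, but was not called. The w1118 eye-brain complexes of the second table, run on another instrument, had other levels of some of these genes and of eye and neuroblast markers. On TMM scales set separately in each table, the log2 difference, first table minus second, was 0.71 in stg, -2.09 in Mcm3 and -1.29 in Rbf. It was 0.50 in PCNA and -0.09 in Cdk4. Leaving out single w1118 libraries gave between 15 and 22 called genes. The calls of CycB and aurB were each lost in 6 of these 9 fits (adjusted p up to 0.091 and 0.090), among them those without any 1 of eye-brain replicates 1 and 2 or wing disc replicates 1 and 3. The call of polo was lost without wing disc replicate 1 or either eye-brain library (0.051 to 0.072), that of BubR1 without wing disc replicate 3 or either eye-brain library (0.055 to 0.075), and that of fzy without eye-brain replicate 2 (0.062). Mcm2, dup and Dp were also lost in some of these fits (adjusted p up to 0.079, 0.060 and 0.078).

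The balance of mitotic to S-phase RNA was described by the ratio of the summed counts per kilobase of the 11 mitotic genes to those of the 18 S-phase genes, a value within each library that does not depend on its scaling. PCNA and geminin gave the largest parts of the S-phase sum in each tissue. In w1118 embryos the ratio was 0.427, 0.342, 0.469 and 0.326, a mean of 0.391 ± 0.0683 (SD, n = 4). In w1118 wing discs it was 0.605, 0.672 and 0.611, a mean of 0.629 ± 0.0368 (SD, n = 3). In w1118 eye-brain complexes it was 0.719 and 0.696 in the first table and 0.71, 0.674 and 0.739 in the second. The w1118 embryo libraries thus all lay below the larval ones, and the highest wing disc library (0.672) lay just below the lowest eye-brain library (0.674). FtICD libraries had ratios of 0.325, 0.381, 0.41 and 0.54 in embryos, 0.682, 0.685 and 0.678 in wing discs, and 0.645, 0.678 and 0.615 in eye-brain complexes. Against the w1118 of their tissue, FtICD embryos overlapped, FtICD wing discs lay above all 3 w1118 libraries by a small margin, and FtICD eye-brain complexes lay below both. The ft null libraries, at 0.682, 0.718 and 0.706, overlapped their w1118. No test was applied to these ratios.

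**Figure D2:**
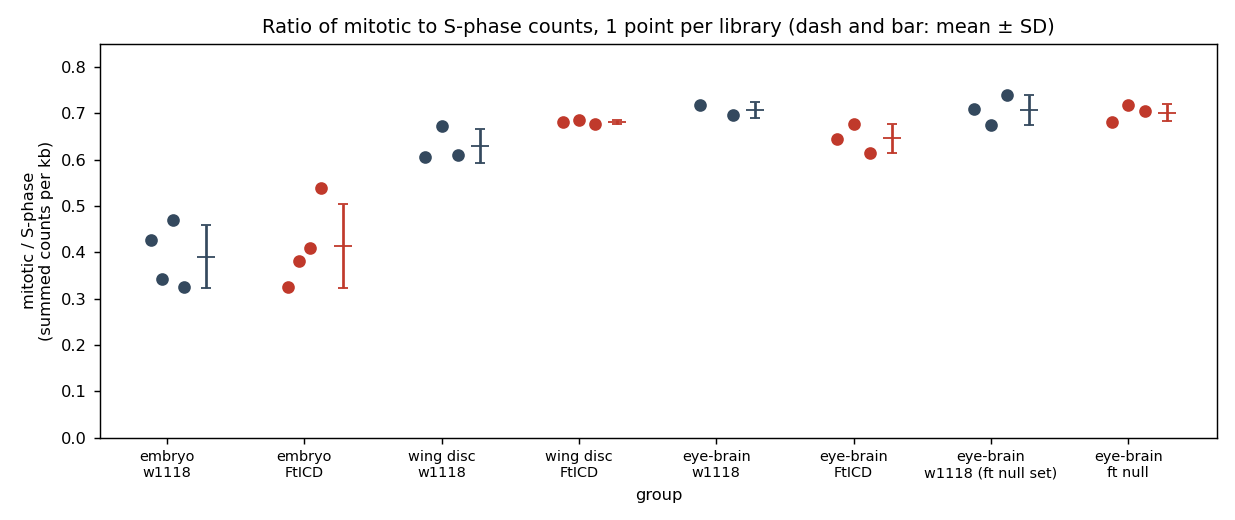
Ratio of the summed counts per kilobase of the 11 mitotic genes to those of the 18 S-phase genes, 1 point per library and 8 groups, with the mean and SD as dash and bar. Embryo libraries sit between 0.325 and 0.54 and all larval libraries between 0.605 and 0.739.

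In FtICD embryos 14 of the 35 genes were lower than in w1118 and 0 higher (25.8% of all genes lower and 26.7% higher). DESeq2 called 15 lower and 0 higher, and 17 were lower and 2 higher at an unadjusted p under 0.05. Of the S-phase genes 9 of 18 were lower, with a median log2 fold change of -0.45. Of the G1 genes 1 of 6 was lower (median 0.12), and of the mitotic genes 4 of 11 (median -0.37). The median over all genes was 0.00. Against the w1118 mean, the mitotic median of each library was -0.24, -0.50, -0.37 and -0.14 with FtICD. In w1118 it was 0.28, -0.37, 0.32 and -0.20, so that the groups overlapped. The S-phase medians did not overlap (-0.46 to -0.24 against -0.10 to 0.09).

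The licensing inhibitor gene geminin stood at 23.9, 25.9, 25.8 and 29 CPM in the FtICD embryo libraries and at 56, 52.7, 60.3 and 51.9 in w1118. The groups lay far apart with little spread, and geminin was 2.11-fold lower with FtICD (log2 fold change -1.08 ± 0.08 SE, edgeR adjusted p = 4.6e-06), the smallest p of the 35 genes. PCNA was at 34.3, 29.8, 25.9 and 22.1 CPM against 51.8, 45.8, 53.3 and 50, also without overlap (-0.84 ± 0.12 SE, adjusted p = 2.4e-04). RnrS, the small subunit of ribonucleotide reductase, was at 34.9, 26, 29.2 and 28.5 CPM against 44.9, 39, 41.6 and 44.5 (-0.52 ± 0.10 SE, adjusted p = 1.2e-03). Its partner subunit gene RnrL was not called, at 13.8, 11.2, 10.8 and 7.97 CPM against 11.2, 10.7, 10.5 and 11.8 (-0.01, adjusted p = 0.94). The helicase subunit gene Mcm7, whose exons overlap those of an antisense gene, was at 10.1, 10.4, 9.9 and 13 CPM against 23.3, 15, 23.6 and 16.3 (-0.85 ± 0.17 SE, adjusted p = 1.5e-03). All 4 FtICD libraries were below all 4 w1118 libraries.

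The other S-phase genes called lower were Mcm10, a factor that activates the loaded helicase, by -0.94 (adjusted p = 4.0e-03), dup by -0.68 (adjusted p = 4.5e-03), Orc1 by -0.53 (adjusted p = 0.016), Cdc6 by -0.39 (adjusted p = 0.036) and Mcm5 by -0.39 (adjusted p = 0.043). The FtICD and w1118 libraries overlapped for Orc1 and Cdc6. The calls of Mcm5, Cdc6 and Orc1 depended on single libraries. Mcm5 was lost without FtICD replicate 2 or 4 or w1118 replicate 1, 3 or 4 (adjusted p = 0.075 to 0.11), Cdc6 without FtICD replicate 1 or 2 or w1118 replicate 1 or 3 (0.072 to 0.10), and Orc1 without w1118 replicate 3 (0.051). Of the other helicase subunit genes, Mcm2, Mcm3 and Mcm6 had values of -0.27, -0.32 and -0.17 and dpa a value of 0.11, none of them called by edgeR. Mcm3 was close to the threshold (adjusted p = 0.051), and DESeq2 called it lower (-0.33, adjusted p = 0.045).

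Among G1 genes Cdk2 alone was called, at 8.45, 6.43, 6.66 and 8.44 CPM against 12, 8.79, 8.48 and 12.3 (-0.47 ± 0.16 SE, edgeR adjusted p = 0.028), with FtICD just below w1118 and exons shared with CG17267. Its call was lost without FtICD replicate 2 or 3 or w1118 replicate 1 or 4 (adjusted p = 0.071 to 0.089). Cdk4, Dp and dap, the gene of the Cdk2 inhibitor Dacapo, had values of 0.18, 0.23 and 0.26 and were not called.

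Of the mitotic genes, CycB showed the largest fold change of the 35. It was at 5.37, 8.09, 11.4 and 22.1 CPM with FtICD and at 52.4, 33.4, 62.8 and 27 in w1118, 3.73-fold lower (-1.90 ± 0.40 SE, edgeR adjusted p = 2.3e-03). The groups did not overlap, although both spread widely. CycB3, a cyclin of anaphase, was at 5.89, 11.3, 12.9 and 20.3 CPM against 32.5, 22.2, 32.2 and 19.3 (-1.08 ± 0.31 SE, adjusted p = 0.013), and polo at 6.45, 12.8, 13.7 and 18.7 against 26.2, 14.5, 32.3 and 17.3 (-0.80 ± 0.31 SE, adjusted p = 0.0498). Both overlapped between groups, FtICD replicate 4 reaching the lowest w1118 libraries. In these 3 genes FtICD replicate 1 was the lowest library and FtICD replicate 4 the highest of its group, and w1118 replicates 1 and 3 stood above 2 and 4. The fourth gene, stg, moved little but evenly, at 42.2, 41, 41.7 and 47 CPM against 48.9, 49.5, 53.9 and 47.6 (-0.22 ± 0.07 SE, adjusted p = 0.029). The call of polo was lost without FtICD replicate 1, 2 or 3 or w1118 replicate 1 or 3 (adjusted p = 0.073 to 0.16), and with DESeq2, and that of stg without FtICD replicate 2 or 3 or w1118 replicate 3 (0.058 to 0.085). Cdk1, aurA, aurB and BubR1, with values of -0.10, -0.17, -0.24 and 0.15, were not called. Neither were CycA, fzy and Mad2 by edgeR, while DESeq2 called Mad2 lower (-0.59, adjusted p = 0.046). Of the 11 mitotic values 10 were below 0. The 8 genes called with every single library left out in turn were geminin, PCNA, RnrS, Mcm7, Mcm10, dup, CycB and CycB3. The number of the 35 called lower ran from 9, without w1118 replicate 3, to 19, without w1118 replicate 2.

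**Figure D3:**
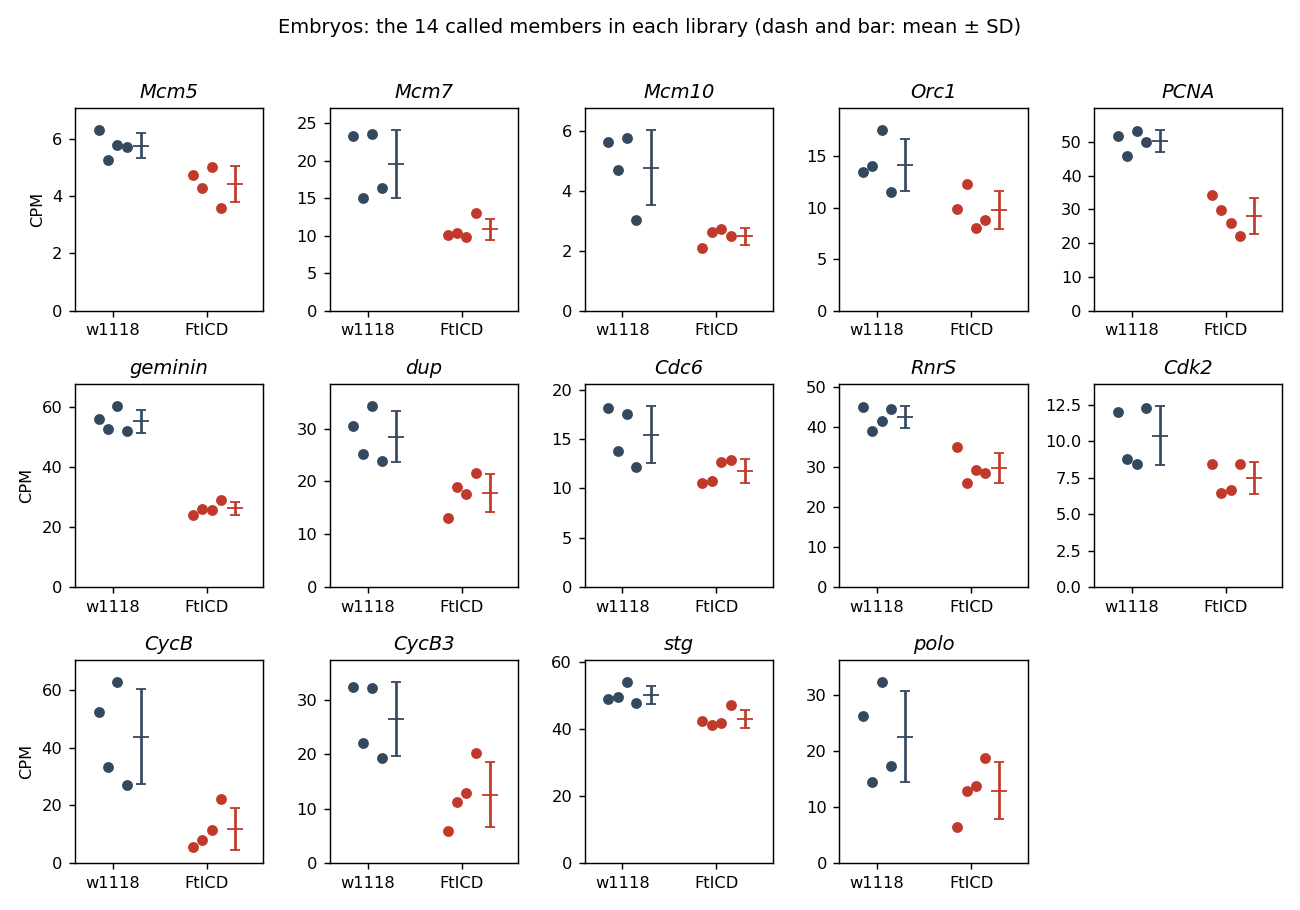
The 14 genes called lower in FtICD embryos, in CPM, with 1 point per library (4 w1118 and 4 FtICD) and the mean and SD as dash and bar. The groups are apart for geminin (23.9 to 29 against 51.9 to 60.3 CPM) and PCNA, while CycB, CycB3 and polo spread within both groups and overlap for the latter pair.

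Genes of the same processes outside the set were read from lists of textbook members. Of 38 other replication genes 14 were lower and 3 higher in FtICD embryos (median -0.27), against 25.8% of all genes lower and 26.7% higher. The lower ones included RPA2, a subunit of the single-strand binding protein (-1.12, edgeR adjusted p = 1.1e-04), Caf1-180 of the chromatin assembly factor (-0.68, adjusted p = 1.8e-04) and Ts, thymidylate synthase (-0.78, adjusted p = 2.3e-04). The higher ones were Gnf1 of the clamp loader (0.67), chif, an activator of the kinase Cdc7 (0.31), and CG12018 (0.73). Of 52 other mitosis genes 14 were lower and 12 higher (median -0.08), near the shares over all genes. Incenp of the Aurora B complex (-0.76), tum (-1.35) and the anillin gene scra (-0.64), which act in cytokinesis, were lower, and the condensin gene Cap-H2 (1.06), the centromeric histone gene cid (1.08) and the microtubule polymerase gene msps (0.53) were higher. Of 25 other cell cycle control genes 6 were lower and 4 higher (median -0.09). The transcription factor genes E2f1 (-0.60, adjusted p = 2.0e-04) and E2f2 (-0.45, adjusted p = 2.3e-03), whose products bind DNA with Dp, were lower, as was mip40 (-0.68), and Myb (0.38), CycT (0.30) and lok (0.29) were higher.

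Other measures differed between the same embryo groups. The summed level of 12 early embryo and maternal RNA markers was 151 to 167 CPM with FtICD and 81.3 to 103 in w1118. Of the 9 tested, nos (5.20 on the log2 scale) and zld (1.06) were higher. Lower were bcd (-2.02), plu (-1.89) and exu (-0.69), and the median of the 9 was -0.69. Neuroblast markers summed to 85.6 to 130 against 69.8 to 84 CPM (3 of 5 higher), neuron markers to 937 to 1056 against 766 to 886 (3 of 5 higher) and haemocyte markers to 161 to 180 against 139 to 143 (4 of 5 higher). Ribosomal RNA genes took 10.94 to 14.77% of counts with FtICD and 3.97 to 5.63% in w1118. The part of these differences in the lower levels of the 14 genes was not tested.

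In wing discs 4 of the 35 genes were higher with FtICD and 0 lower (7.67% of all genes higher and 9.97% lower). DESeq2 called 4 higher and 1, Rbf, lower, and 12 were higher and 1 lower at an unadjusted p under 0.05. The medians were 0.11 over the S-phase genes, -0.01 over the G1 genes and 0.22 over the mitotic genes, against 0.01 over all genes, and all 11 mitotic genes had values above 0.

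Orc1, the largest subunit of the origin recognition complex, was at 84.4, 93 and 71.2 CPM with FtICD and at 59.5, 41.8 and 50.1 in w1118 (log2 fold change 0.72 ± 0.15 SE, edgeR adjusted p = 0.021). The mitotic activator gene stg was at 344, 324 and 268 CPM against 231, 219 and 218 (0.49 ± 0.11 SE, adjusted p = 0.021). The gene of Aurora B, the kinase of the chromosomal passenger complex, was at 252, 241 and 236 CPM against 199, 176 and 200 (0.34 ± 0.08 SE, adjusted p = 0.027). In each of these genes, and in the checkpoint gene Mad2, all FtICD libraries lay above all w1118 libraries. Mad2 was at 63.9, 60.6 and 53.2 CPM against 46.8, 44.6 and 47.5 (0.35 ± 0.09 SE, adjusted p = 0.040). None of the 4 calls held with every single library left out in turn. Orc1 was lost without FtICD replicate 2 or w1118 replicate 2 or 3 (adjusted p = 0.055 to 0.077), stg without any library but FtICD replicate 3 (0.0503 to 0.079), aurB without FtICD replicate 1 or 2 or w1118 replicate 1 or 2 (0.074 to 0.081), and Mad2 without any library but FtICD replicate 3 (0.086 to 0.13). The number of the 35 called higher ran from 0, without FtICD replicate 2 or w1118 replicate 2, to 6, without FtICD replicate 3.

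None of the other 17 S-phase genes of the set was called in wing discs. PCNA was at 572, 559 and 533 CPM against 540, 481 and 550, and geminin at 239, 212 and 252 against 244, 235 and 236. None of the 6 G1 genes was called by edgeR, while at an unadjusted p under 0.05 and with DESeq2 0 were higher and 1, Rbf, lower. The most abundant of them, Dp, was at 266, 300 and 257 CPM against 275, 276 and 276, and Cdk2 at 114, 118 and 122 against 123, 110 and 127. Mcm3 and Rbf varied strongly among the FtICD discs. Mcm3 was at 178, 110 and 62.5 CPM against 191, 171 and 193 (-0.66 ± 0.33 SE, adjusted p = 0.22), and Rbf at 88, 53 and 45.2 against 106, 96.4 and 103 (-0.71 ± 0.23 SE, adjusted p = 0.081). In both, FtICD replicate 1 was near w1118 and FtICD replicates 2 and 3 lay far below it. These values for Mcm3 and Rbf were picked out after they were seen.

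Of 38 other replication genes 5 were higher and 1 lower in FtICD wing discs (median 0.19), against 7.67% of all genes higher and 9.97% lower. CG12018 (0.79), the helicase gene RecQ4 (0.41) and Psf1 of the GINS complex (0.59) were higher and timeout (-1.02) was lower. Of 52 other mitosis genes 8 were higher and 4 lower (median 0.19). The condensin gene barr (0.64), pav, a kinesin of cytokinesis (0.45), and the kinetochore gene Mis12 (0.73) were higher, and borr (-3.18), Ndc80 (-1.57) and pbl (-0.46) were lower. Of 24 other control genes 4 were higher, among them twe, the other Cdc25 gene (0.80), lok (0.45) and Wee1, the kinase that opposes Cdc25 (0.38), and 1, ago, was lower (-0.68). In the same libraries 6 wing disc markers summed to 601 to 679 CPM with FtICD and 814 to 922 in w1118 (3 of 6 lower). Neuroblast markers summed to 62.6 to 77.6 against 41.4 to 49.4 CPM. Of 4 tested, dpn (0.85) alone was called, and their median was -0.15. Fat body markers summed to 62.1 to 644 against 26.4 to 80.2 CPM, with 1 of 4 called higher by edgeR and 4 by DESeq2. The part of these differences in the 4 calls was not tested.

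In FtICD eye-brain complexes 1 gene of the 35 was higher than in w1118 and 0 lower (3.15% of all genes higher and 1.08% lower). DESeq2 called 4 higher and 4 lower, and so many also had an unadjusted p under 0.05. This comparison rested on 2 w1118 libraries and had the largest biological coefficient of variation of the 4, at 33.7%, against 14.9% in embryos, 20.6% in wing discs and 11.9% in the ft null set. The gene called was Rbf, the fly retinoblastoma gene, at 87.7, 82.1 and 95.6 CPM with FtICD and at 56.1 and 43.3 in w1118 (log2 fold change 0.83 ± 0.15 SE, edgeR adjusted p = 0.047). The groups did not overlap. The call was lost without FtICD replicate 1 or 2 or either w1118 library (adjusted p = 0.058 to 0.25). Mcm3 was at 165, 136 and 162 CPM against 91.5 and 56.2 (1.06 ± 0.24 SE, adjusted p = 0.079). Relative to w1118 eye-brain complexes of the second table, scaled separately, these w1118 libraries stood at -1.29 in Rbf and -2.09 in Mcm3 (log2). The part of these low w1118 levels in the FtICD values was not tested. Mcm6 and CycD, on X like Rbf and Mcm3, stood at -0.44 and -0.23 against that w1118. Mcm3 was among the 4 that DESeq2 called higher, with Orc1 (0.42), aurB (0.30) and Rbf. The 4 it called lower were Mcm7 (-0.23), Mcm10 (-0.36), Orc5 (-0.41) and dap (-0.69).

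No S-phase or mitotic gene was called by edgeR in these eye-brain complexes. At an unadjusted p under 0.05, 2 S-phase genes were higher and 2 lower, and 1 mitotic gene was higher and 1 lower. The medians of these classes were 0.06 and -0.06, with -0.17 over the G1 genes and 0.01 over all genes. PCNA was at 387, 360 and 357 CPM against 350 and 319, and dpa at 239, 223 and 251 against 216 and 223. Of the mitotic genes stg was at 323, 335 and 279 CPM against 421 and 365 (-0.33 ± 0.13 SE, adjusted p = 0.22), with FtICD below w1118, and polo at 303, 281 and 279 against 301 and 297. Of the other lists, CG12018 among 38 replication genes (0.78, adjusted p = 0.038) and feo (1.33) and Ndc80 (2.03) among 53 mitosis genes were higher. No gene of these lists was called lower by edgeR. Over all genes 3.15% were higher and 1.08% lower. By DESeq2 1 replication and 2 mitosis genes were lower, and by an unadjusted p under 0.05 the counts were 1 and 4. Of 25 control genes 0 were called by edgeR. At an unadjusted p under 0.05 and with DESeq2 alike, 1 was higher and 2 lower. Haemocyte markers summed to 65.9 to 249 CPM in FtICD libraries and 47.4 to 52.1 in w1118, with 0 of 5 called by edgeR and 1 higher both by DESeq2 and at an unadjusted p under 0.05. Fat body markers summed to 7.01, 13.4 and 3566 CPM in the 3 FtICD libraries, so that 1 library carried the high value, and to 7.33 and 64.1 in w1118. Eye markers summed to 151 to 303 CPM with FtICD and 130 to 155 in w1118, and neuroblast markers to 253 to 272 and 212 to 244. By edgeR 0 of 6 eye and 0 of 5 neuroblast markers were called, and by DESeq2 1 eye marker was higher. Ribosomal RNA genes took 4.032 to 9.104% of counts with FtICD and 10.07 to 13.73% in w1118. FtICD replicate 3 stood apart from the other 2, with a chi-square per degree of freedom of 264 and 311 against them and 32.9 between those 2. Without it Rbf was still the 1 gene called higher. The part of these differences in the values above was not tested.

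In the ft null eye-brain complexes 18 of the 35 genes were higher and 2 lower than in their w1118 (23.5% of all genes higher and 21.0% lower). Of the S-phase genes 8 of 18 were higher, with a median log2 fold change of 0.23, and of the mitotic genes 8 of 11, with a median of 0.43. Both genes called lower, and 2 of those called higher, were among the 6 G1 genes (median 0.14). DESeq2 called 17 of the 35 higher and 3 lower, and at an unadjusted p under 0.05 the counts were 22 and 3. The median over all genes was 0.00. The changes were small, none of the 20 called genes moving more than 1.56-fold.

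Among S-phase genes the helicase subunit genes Mcm3, Mcm6 and Mcm7 had the smallest p. Mcm3 was at 408, 387 and 387 CPM in the ft null and at 298, 267 and 292 in w1118 (log2 fold change 0.46 ± 0.06 SE, edgeR adjusted p = 9.5e-04). Mcm6 was at 184, 191 and 185 CPM against 155, 128 and 143 (0.39 ± 0.07 SE, adjusted p = 4.2e-03), and Mcm7 at 185, 200 and 183 against 154, 130 and 156 (0.37 ± 0.08 SE, adjusted p = 8.7e-03). All ft null libraries lay above all w1118 libraries in these genes. PCNA was at 263, 251 and 246 CPM against 228, 214 and 217, a small difference without overlap (0.21 ± 0.05 SE, adjusted p = 0.018). Mcm5 (0.31, adjusted p = 0.018), Mcm2 (0.31, adjusted p = 0.021), Cdc6 (0.30, adjusted p = 0.035) and RnrL (0.35, adjusted p = 0.043) were also higher. The genes of the origin recognition complex had values between 0.03 and 0.26 and none was called. Neither was geminin, at 86.4, 87.1 and 81.4 CPM against 91.6, 84.1 and 81.2 (-0.01 ± 0.06 SE, adjusted p = 0.90), nor dup (0.15). The helicase subunit gene dpa, Mcm10 and RnrS were not called either.

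The G1 genes went in both directions. Cdk4 was at 56, 55.6 and 53.6 CPM against 49.1, 46.8 and 46.7 (0.21 ± 0.05 SE, edgeR adjusted p = 0.014) and Dp at 283, 308 and 305 against 253, 231 and 274 (0.24 ± 0.07 SE, adjusted p = 0.032). The Cdk inhibitor gene dap was lower, at 30.7, 39.5 and 33 CPM against 56.4, 40 and 65.1 (-0.64 ± 0.18 SE, adjusted p = 0.020). Its groups touched, ft null replicate 2 lying just below w1118 replicate 2. Cdk2, the kinase that Dacapo inhibits, was also lower, at 48.5, 51 and 47.4 CPM against 55.1, 57.4 and 56.2 (-0.20 ± 0.05 SE, adjusted p = 0.020). Rbf (0.16, adjusted p = 0.054) and CycD (0.11) were not called.

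Among mitotic genes aurB had the smallest p, at 130, 135 and 124 CPM against 102, 90.2 and 95.4 (0.44 ± 0.06 SE, edgeR adjusted p = 1.6e-03). CycB was at 243, 252 and 256 CPM against 199, 152 and 191 (0.47 ± 0.10 SE, adjusted p = 7.0e-03), Mad2 at 46.7, 43.4 and 42.3 against 35.3, 33.1 and 37.2 (0.33 ± 0.07 SE, adjusted p = 8.4e-03), and polo at 328, 358 and 341 against 263, 208 and 284 (0.45 ± 0.11 SE, adjusted p = 0.014). No library of the ft null overlapped with w1118 in these 4 genes. CycB3 (0.37, adjusted p = 0.014), fzy (0.43, adjusted p = 0.023), aurA (0.47, adjusted p = 0.024) and BubR1 (0.44, adjusted p = 0.033) were higher as well. Cyclin A, Cdk1 and String, which together drive entry into mitosis, were not among them. CycA had a value of 0.02, stg of -0.07 and Cdk1 of -0.30 (adjusted p = 0.066), and DESeq2 called Cdk1 lower (-0.32, adjusted p = 0.036).

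Replicate 2 of this w1118 group was the lowest library for most of these genes. Against the mean of the group, its median over the S-phase genes was -0.18 on the log2 scale and over the mitotic genes -0.23, against 0.09 to 0.10 in the other 2 libraries. Without it the medians over the S-phase and mitotic genes were 0.14 and 0.26, and 16 genes were higher and 4 lower. Of the called values 9 then shrank by over 1.5 times. They were aurA (0.30), fzy (0.28), BubR1 (0.26), CycB3 (0.24), RnrL (0.20), Mcm5 (0.20), Mcm2 (0.19), Cdc6 (0.19) and Dp (0.16), of which Cdc6 (adjusted p = 0.071) and Dp (0.064) were no longer called. Leaving out ft null replicate 2 left 9 genes higher and leaving out ft null replicate 3 left 11. The 8 genes called with every single library left out in turn were Mcm3, Mcm6, Mcm7, CycB, CycB3, polo, aurB and Mad2. The other 12 calls were each lost in at least 1 such fit. Without ft null replicate 2, for example, the calls of Mcm2, Mcm5, Cdk4, Dp, fzy, aurA, BubR1, Cdc6 and RnrL were lost (adjusted p = 0.054 to 0.12), and without ft null replicate 3 those of Cdk2 and dap (0.10 and 0.074). The call of PCNA was lost without ft null replicate 1 (0.060) or w1118 replicate 3 (0.055).

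**Figure D4:**
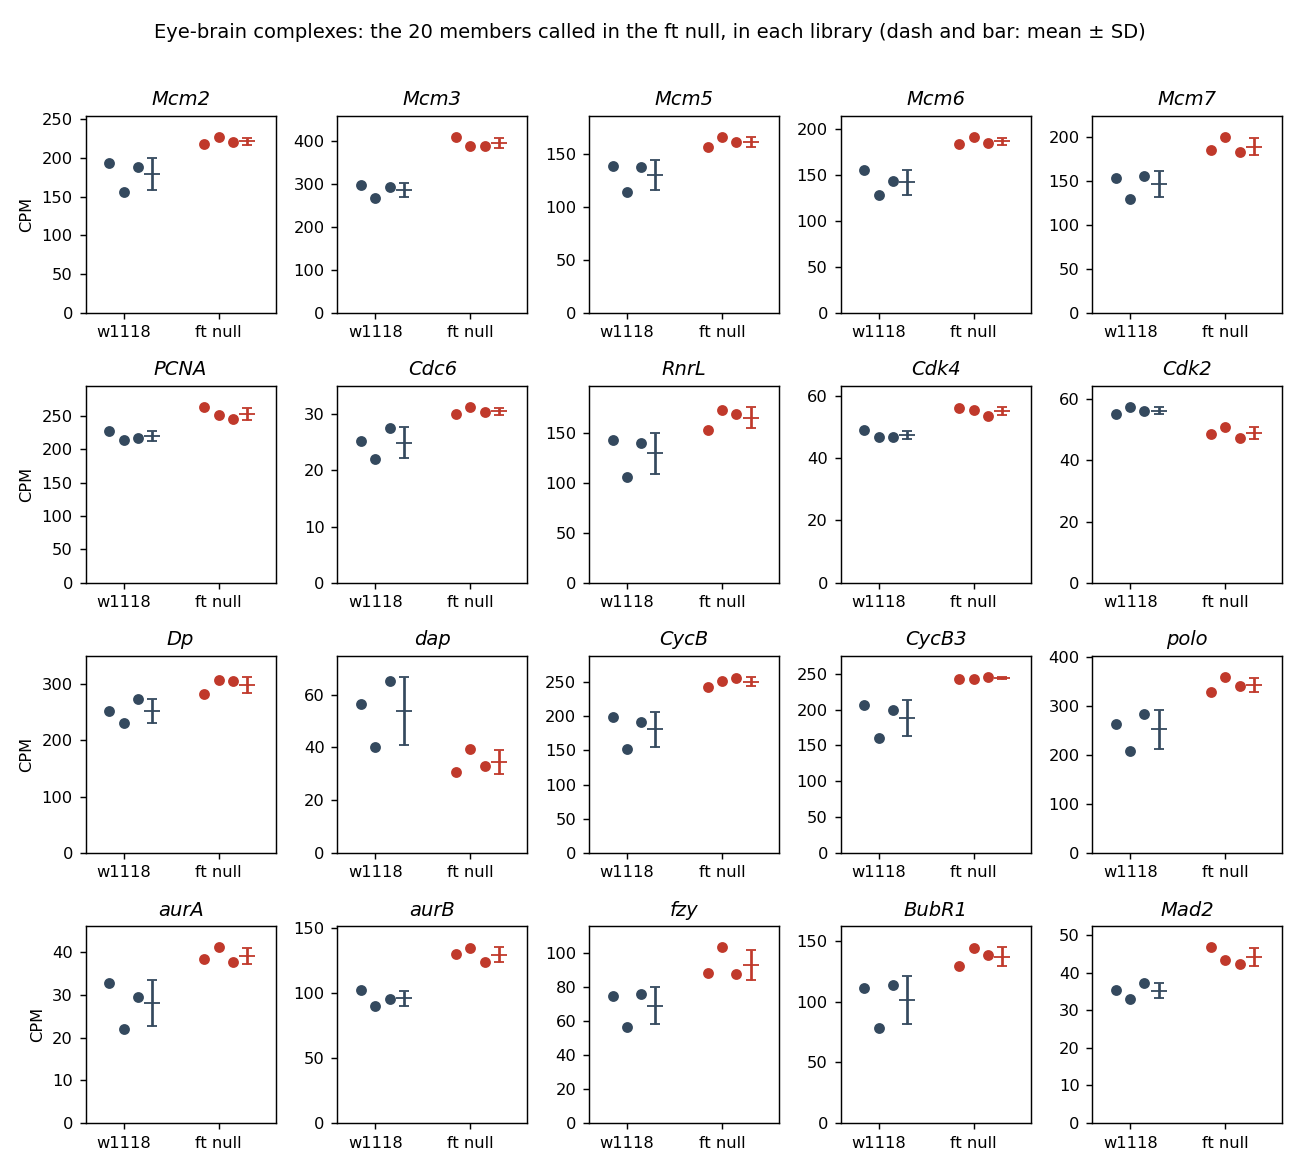
The 20 genes called in ft null eye-brain complexes, in CPM, with 1 point per library (3 w1118 and 3 ft null) and the mean and SD as dash and bar. In 18 panels the ft null points lie above w1118 and in Cdk2 and dap below, and w1118 replicate 2, the middle point, is the lowest of its group in most of the panels.

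Of 38 other replication genes 20 were higher and 0 lower in the ft null (median 0.34), against 23.5% of all genes higher and 21.0% lower. At an unadjusted p under 0.05, 23 were higher and 1 lower, and DESeq2 called 21 higher and 0 lower. RPA2 (0.61, edgeR adjusted p = 3.9e-04), RfC4 of the clamp loader (0.47, adjusted p = 4.1e-04) and mus101, which acts in origin firing and checkpoint signalling (0.41, adjusted p = 7.6e-04), had the smallest p. Of 53 other mitosis genes 29 were higher and 3 lower (median 0.30). The midzone gene feo (0.76), the centrosomal kinase gene Nek2 (0.77) and the checkpoint gene rod (0.72) were higher, and Mis12 (-0.42), fzr (-0.31) and vih (-0.29) were lower. The products of fzr and vih are a cofactor and a ubiquitin-conjugating enzyme of the anaphase-promoting complex. Of 25 other control genes 13 were higher and 0 lower (median 0.23), with mei-41, the fly ATR kinase (0.66), trbl, which promotes turnover of String (0.63), and mip130 (0.48) among them. At an unadjusted p under 0.05 these counts were 16 and 1, and with DESeq2 12 and 0.

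The cell type markers of the ft null libraries differed from those of w1118 as well. All 5 haemocyte markers were higher (333 to 419 against 108 to 123 CPM in sum), all 5 neuron markers lower (1161 to 1230 against 1566 to 1737), and of 6 eye markers 5 were lower and 1 higher (592 to 620 against 805 to 877). Neuroblast markers summed to 446 to 477 against 442 to 548 CPM, with 1 of 5 lower, and wing disc markers to 224 to 264 against 292 to 318, with ap and rn of 6 lower. No gene of these 5 lists was at 0 in every ft null library. Early embryo and maternal markers summed to 252 to 289 against 167 to 191 CPM, with zld (0.60) higher and gnu (-1.87) lower of 4 tested. Germ line markers summed to 3.5 to 4.86 against 9.5 to 11.7 CPM, with 2 of 3 tested lower and zpg at 0 in all ft null libraries. Their part in the higher level of the replication and mitotic genes was not tested.

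**Figure D5:**
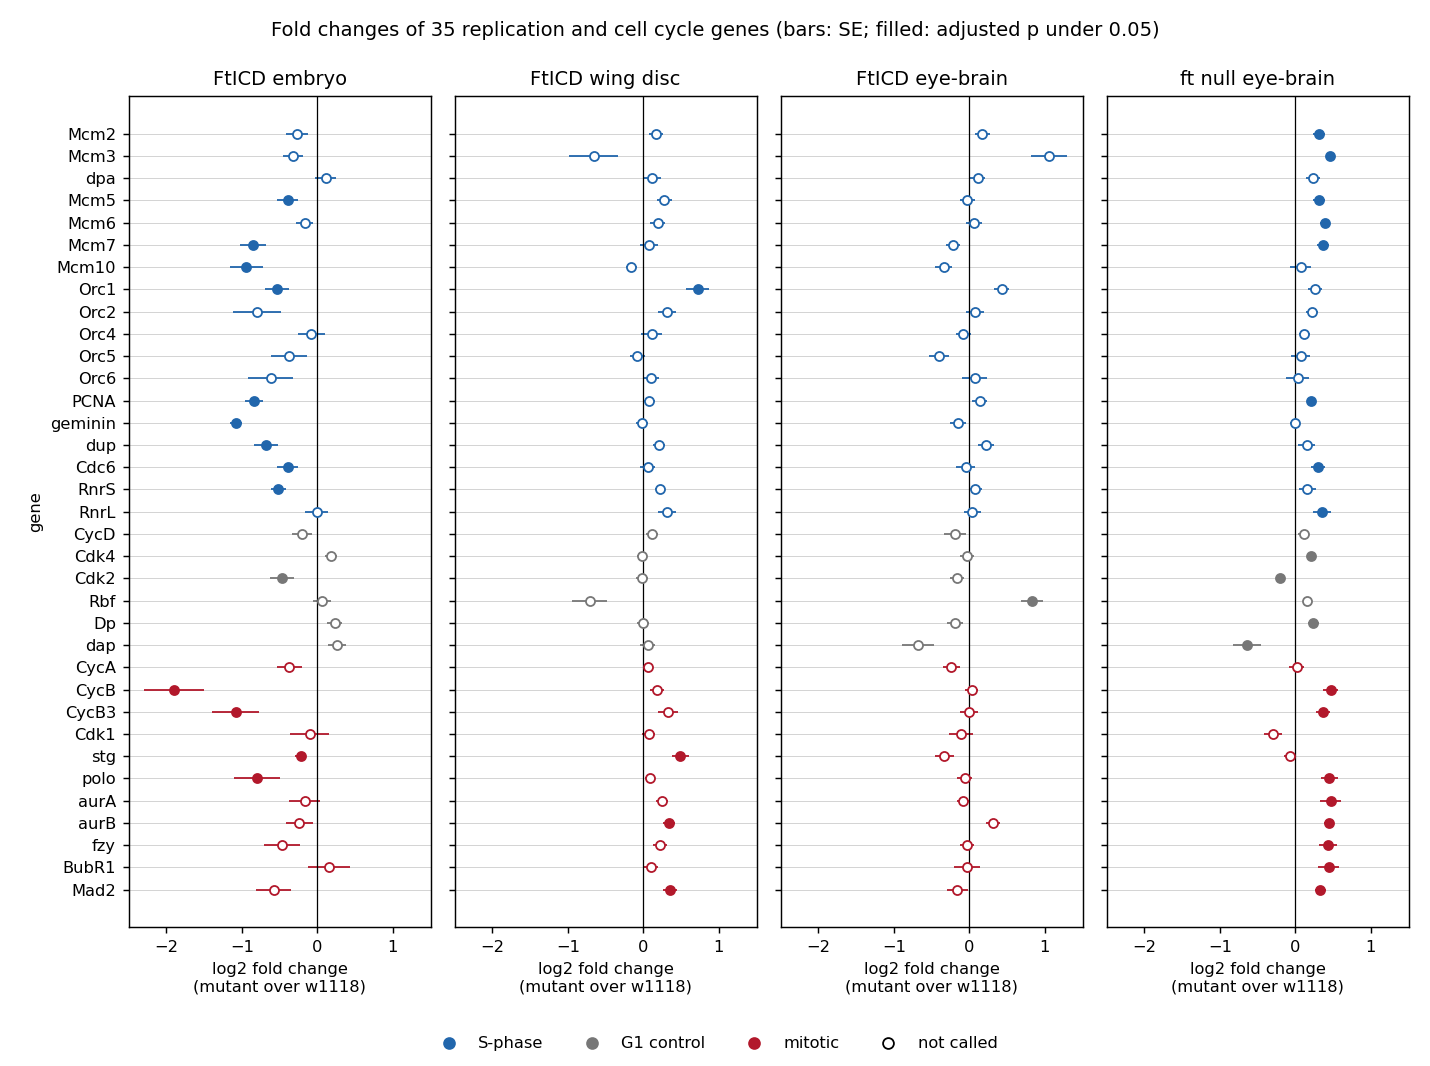
Log2 fold change of each of the 35 genes, mutant over the w1118 of the same table and tissue, in the 4 comparisons, with SE as bars. Filled points passed an adjusted p of 0.05, which 14 genes did in FtICD embryos (all below 0), 4 in FtICD wing discs, 1 in FtICD eye-brain complexes and 20 in the ft null (18 above 0).

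Whether the FtICD difference itself varied between tissues was tested as an interaction over the 19 libraries of the first table, with 1 mean per group. The comparisons within a test share no library, but the 3 tests share groups. Between wing disc and embryo 16 of the 35 genes differed (27.7% of all genes). In 15 of them the FtICD fold change was more positive in wing discs. For CycB the difference was 2.11 ± 0.49, for CycB3 1.44 ± 0.40, for Orc1 1.28 ± 0.22, for geminin 1.10 ± 0.13 and for PCNA 0.96 ± 0.16 on the log2 scale (SE, edgeR adjusted p = 4.3e-03, 0.013, 5.9e-04, 2.7e-05 and 3.7e-04). Orc1 and stg were called in both tissues and in opposite directions, higher in FtICD wing discs and lower in FtICD embryos, and stg differed by 0.74 ± 0.14 (SE, adjusted p = 9.7e-04). The other positive differences were Orc2 (1.14), Mad2 (0.97), Mcm7 (0.96), dup (0.92), Mcm10 (0.82), RnrS (0.78), Mcm5 (0.70), aurB (0.62) and aurA (0.46). Rbf went the other way (-0.73, adjusted p = 0.044). All 16 except Rbf, aurA and aurB were called with every single library left out in turn. Those 3 were lost in 12, 8 and 2 of the 19 such fits (adjusted p up to 0.11, 0.092 and 0.066). At an unadjusted p under 0.05 and with DESeq2 alike, 23 differences were positive and 1 negative. The class medians of the difference were 0.73 for S-phase, -0.16 for G1 and 0.73 for mitotic genes, against 0.04 over all genes.

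Between eye-brain complexes and embryos 11 of the 35 differed (28.2% of all genes). PCNA (0.99), Orc1 (0.97), geminin (0.94), dup (0.90) and RnrS (0.61) were called with every single library left out in turn (edgeR adjusted p = 2.2e-04 to 6.9e-03 with all libraries). CycB (1.93), Mcm3 (1.40), Rbf (0.78), Mcm7 (0.63), Dp (-0.41) and dap (-0.93) were also called, but not in every such fit. CycB was lost without w1118 eye-brain replicate 1 (adjusted p = 0.051) or 2 (0.062), Mcm3 without w1118 eye-brain replicate 2 (0.11) and dap without w1118 eye-brain replicate 1 (0.066). Rbf, Mcm7 and Dp were lost in most of the fits, with adjusted p up to 0.23, 0.18 and 0.13. Between eye-brain complexes and wing discs 4 differed (12.0% of all genes), namely Mcm3 (1.70), Rbf (1.52), dap (-0.77) and stg (-0.85). In Mcm3 and Rbf the w1118 eye-brain libraries of these tests stood far below those of the second table, as given in the next paragraph. Rbf and stg held with every single library left out, whereas Mcm3 was lost without w1118 eye-brain replicate 2 (adjusted p = 0.075), and dap in 14 fits, by most without w1118 eye-brain replicate 1 (-0.52, adjusted p = 0.28).

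In eye-brain complexes, where Fat was both raised and lost, each mutant was set against the w1118 of its own table, 11 libraries in all. The difference of the fold changes, ft null minus FtICD, was called for 4 of the 35 genes (17.2% of all genes). They were Mcm7 (0.64 ± 0.13 SE, edgeR adjusted p = 9.9e-03), Rbf (-0.62, adjusted p = 0.021), Dp (0.48, adjusted p = 0.031) and Mad2 (0.53, adjusted p = 0.041). Mcm7 alone was called with every single library left out, and Rbf, Dp and Mad2 were lost in 4, 6 and 9 of the 11 fits (adjusted p up to 0.063, 0.097 and 0.17). Without w1118 eye-brain replicate 1 of the first table Mad2 was at 0.37. Mcm7 was higher in the ft null by 0.37 and stood at -0.22 with FtICD, uncalled there, and Dp was at 0.24 and -0.19. The mitotic genes had a median difference of 0.49 and the S-phase genes of 0.19, against -0.02 over all genes, and 10 of the 11 mitotic genes had values above 0, although 1 was called. The tables were run on different instruments, and their w1118 eye-brain complexes also differed in marker and ribosomal RNA levels. Eye markers summed to 130 to 155 CPM in the first table and 805 to 877 in the second. Neuroblast markers summed to 212 to 244 and 442 to 548 CPM. Ribosomal RNA genes took 10.07 to 13.73% of counts in the first and 0.4034 to 0.4603% in the second. The part of these differences in the values above was not tested. Levels of the 35 genes in w1118 differed as well. On TMM scales set separately in each table, the log2 difference of w1118 eye-brain complexes, first table minus second, was -2.09 in Mcm3, -1.29 in Rbf and 1.04 in geminin. The other 32 genes lay between -0.87 and 0.85.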

How the data were processed

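RNA-seq of 25 libraries (paired reads of 150 bases, SMARTer Ultra Low cDNA of 10 ng total RNA) was used as 2 tables of 17208 genes, with every column used. The authors deposited expected counts, 1 value per gene and library, which had not been normalized. FastQC 0.10, Trimmomatic 0.33, Salmon 1.80, edgeR and the build dm6 are named per the submitters' processing notes, and their settings are not given in the sources used here. Of the nonzero values 31.8% were not whole (tolerance 1e-06), and all were rounded. Per the labels, embryos and the ft null set were run on a NovaSeq X Plus and the remaining libraries on another NovaSeq model. The instrument is thus constant within each comparison of mutant and wild type.

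Each comparison was fitted on its whole table with edgeR 4.0.16 in R 4.3.3: filterByExpr (minimum count 10), TMM, no replicate block, quasi-likelihood F test, and Benjamini-Hochberg adjustment at 0.05. The 4 mutant comparisons used their own libraries, the 3 tissue comparisons the 9 w1118 libraries of the first table, and the interactions 19 or 11 libraries. RLE size factors, no filter, DESeq2 1.42.0, a replicate block, a joint fit and leaving out each library were the alternatives. The scripts were tested on simulated data. Class medians per library and the check for outlying libraries used log2(CPM + 0.5). Among 28 pairs of same-group libraries no duplicate was found (lowest chi-square per degree of freedom 6.23).

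The members, the gene lists and the tests were chosen with earlier results of these data known. In each comparison and class, up to 4 called members per direction with the smallest adjusted p are given in full, the others by value or range, and where a class has none, up to 2 of the highest level. Up to 3 called genes per direction are named from each of the other lists, of which 38 replication genes (3 not matched), 53 mitosis genes and 25 control genes (2 not matched) were found. No sequences are shown. Totals per library were 23642579 to 30046798 counts in embryos, 30886091 to 54256664 in wing discs, 30361057 to 41037750 in the eye-brain libraries of the first table and 15016563 to 21001527 in the second.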

Additional observations from a re-analysis of the deposited data

Results flagged for a closer look

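In 1 of the 70 gene and group combinations with 4 libraries, a library stood far from the rest. Mcm3 was at 6.11 CPM in FtICD embryo replicate 4 and at 8.3, 8.68 and 8.48 in replicates 1 to 3. Chance alone picks out about 1 in 20 such groups.

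The FtICD fold change differed between tissues, or from that of the ft null, by a test of the difference itself (edgeR's quasi-likelihood interaction, adjusted over all genes) in the following cases, all on the log2 scale. Wing disc minus embryo was positive for Mcm5 (0.70), Mcm7 (0.96), Mcm10 (0.82), Orc1 (1.28), Orc2 (1.14), PCNA (0.96), geminin (1.10), dup (0.92), RnrS (0.78), CycB (2.11), CycB3 (1.44), stg (0.74), aurA (0.46), aurB (0.62) and Mad2 (0.97), and negative for Rbf (-0.73). Eye-brain minus embryo was positive for Mcm3 (1.40), Mcm7 (0.63), Orc1 (0.97), PCNA (0.99), geminin (0.94), dup (0.90), RnrS (0.61), Rbf (0.78) and CycB (1.93), and negative for Dp (-0.41) and dap (-0.93). Eye-brain minus wing disc was positive for Mcm3 (1.70) and Rbf (1.52), and negative for dap (-0.77) and stg (-0.85). In eye-brain complexes, ft null minus FtICD was positive for Mcm7 (0.64), Dp (0.48) and Mad2 (0.53), and negative for Rbf (-0.62). In this order the tests called 16, 11, 4 and 4 of the 35 genes, against 27.7, 28.2, 12.0 and 17.2% of all genes. Many of these calls were lost when single libraries were left out, as given above.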

How the results depend on the processing

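No called value changed sign under any alternative that was run. Of the 14 genes called in FtICD embryos, 14 were still called with RLE size factors, 13 with no filter on low counts, 13 with DESeq2, 14 in the joint fit and 8 in every fit that left out 1 library. In those last fits 9 to 19 genes were lower and 0 to 1 higher. In wing discs the joint fit called 2 higher and 1 lower and DESeq2 1 lower, and leaving out single libraries gave 0 to 6 higher and 0 to 2 lower. In eye-brain complexes with FtICD, DESeq2 called 4 higher and 4 lower and the joint fit 2 and 2. Leaving out single libraries gave 0 to 1 higher there, with a median over the S-phase genes of -0.04 to 0.11. In the ft null the joint fit called 0 lower, and leaving out single libraries gave 9 to 18 higher and 0 to 4 lower, with a median over the mitotic genes of 0.26 to 0.48. The difference between eye-brain complexes and embryos was called for 6 to 13 genes without single libraries. That between ft null and FtICD was called for 2 genes with no filter, 7 with DESeq2 and 1 to 6 without single libraries. The cause of these changes was not tested. Where leaving out a library left 1 in a group, that library was assumed to vary like the other group.

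Deviations of same-numbered libraries were correlated in either direction, by at most 0.231. The correlations of their deviations from the group means were 0.101, -0.0337, -0.00527 and -0.0142 in embryos, 0.144, 0.00585 and -0.0985 in wing discs, -0.0288 and 0.231 in eye-brain complexes with FtICD, and -0.153, -0.208 and -0.0709 in the ft null set. With so few libraries per group, these values cannot show whether same-numbered libraries shared a collection or preparation, which the labels do not say. With a replicate block, 10 genes were lower in embryos, 2 higher in wing discs, 2 higher in eye-brain complexes with FtICD, and 9 higher and 0 lower in the ft null. Of the 20 genes called in the ft null without a block, 11 were lost with it. Depth did not remove any of the 35 genes from a test. The smallest count was 14, for Orc2 in an embryo library, so values of the lowest genes in embryos carry the largest counting error.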
